A study of Homo sapiens with 12 samples.

Results

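The 10 genes described here belong to the heat shock response, measured in the human colon cancer cell line HCT116, namely HSPA1A, HSPA1B, HSPA8, HSPH1, DNAJB1, HSPB1, HSPB8, BAG3, HSP90AA1 and HSF1. They were found by symbol in the deposited expression table. All 10 of the 10 symbols were present among 36615, and all 10 were among the 13728 genes kept for testing, which reached 1 FPKM in at least 3 libraries. FPKM is a count of sequenced fragments scaled to transcript length and to library size. Poly(A) RNA was sequenced from 4 groups of 3 libraries each. These were p53-/- HCT116 cells depleted of Mina53 (KO-KD), p53-/- cells with a scrambled control (KO-SCR), p53+/+ cells depleted of Mina53 (KD) and p53+/+ cells with the scrambled control (SCR). Mina53 is the product of RIOX2, a JmjC-domain hydroxylase. No group was heated or drugged according to the labels, and neither the depletion reagent nor the harvest time is given in the sources used here. Each genotype is 1 cell line, so the p53 genotype and other differences between the lines cannot be told apart. Nothing states that replicates were separate cultures, so each p-value reflects only library-to-library spread, which could be technical.

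The cytosolic heat shock proteins are chaperones that bind unfolded or partly folded proteins. In resting cells the transcription factor HSF1 is held inactive in complexes with chaperones. When misfolded proteins engage those chaperones, HSF1 forms trimers and binds heat shock elements, which are inverted repeats of the 5-base unit NGAAN. The genes it then activates include inducible HSP70, HSP40, HSP90 and small heat shock proteins. Tumour cells often carry raised heat shock protein levels without heat. HSF1 is regulated largely as a protein, through its trimer formation, phosphorylation and acetylation, and its mRNA level is not a measure of its activity.

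Depletion was visible in the targeted gene. RIOX2 averaged 2.02 ± 0.242 FPKM in KO-KD libraries and 9.09 ± 0.211 in KO-SCR libraries (SD, n = 3 each). In p53+/+ cells RIOX2 averaged 2.72 ± 0.291 FPKM with depletion and 7.49 ± 0.252 with the scrambled control. Of 9 colon epithelial markers in the table, 7 reached 1 FPKM, and their summed level was 1861 to 1951 FPKM in KO-KD, 1895 to 2046 in KO-SCR, 2087 to 2283 in KD and 2380 to 2397 in SCR libraries. KRT8, KRT18 and KRT19 held the largest values in this sum, and VIL1 and LGALS4 stayed under 1 FPKM. The markers did not move together. KRT18 averaged 248 FPKM in KO-KD and 465 in KO-SCR libraries, and 348 in KD and 519 in SCR libraries. KRT19 was higher with depletion, at 646 in KO-KD and 466 in KO-SCR, and 767 in KD and 632 in SCR libraries. Fibroblast and immune lists each had 1 marker over 1 FPKM (COL1A1 and CD68), and no endothelial marker reached it. The summed fibroblast markers were higher with depletion, at 11.7 to 12.2 FPKM in KO-KD and 7.04 to 7.62 in KO-SCR libraries, and 10.2 to 10.7 in KD and 6.75 to 7.43 in SCR libraries. The summed immune markers were at 6.93 to 8.37 FPKM in KO-KD and 8.12 to 9.83 in KO-SCR libraries, and lower in KD libraries, at 3.97 to 4.93, than in SCR libraries, at 7.23 to 8.72. The part of these marker levels in the members' results was not tested. Transcripts of 15 mitochondrial genes took 15.1% to 15.7% of the summed FPKM in KO-KD, 10.9% to 11.96% in KO-SCR, 19.3% to 21.0% in KD and 14.8% to 15.3% in SCR libraries. These shares move with both depletion and genotype, and where leaving these genes out changes a member's call, the value is given beside it.

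The 10 genes did not move as one with depletion. Small heat shock proteins and BAG3 were higher, DNAJB1 and HSF1 were lower, and the HSP70 and HSP90AA1 changes depended on the genotype. In p53-/- cells 5 members were higher in KO-KD than in KO-SCR libraries, 3 were lower and 2 were not called at an adjusted p of 0.05 (limma with Benjamini-Hochberg adjustment). In the same comparison 58.8% of all tested genes were called, 28.9% higher and 29.9% lower. In p53+/+ cells 6 members were higher in KD than in SCR libraries, 3 were lower and 1 was not called, against 60.7% of all genes called, 28.5% higher and 32.2% lower. The median member log2 change was 0.03 in p53-/- cells, beside -0.00 over all genes, and 0.24 in p53+/+ cells, beside -0.02 over all genes. The near-identical neighbours HSPA1A and HSPA1B are counted separately in all member counts and medians, although they are not independent entries. HSPB8, HSPB1 and BAG3 were higher in both genotypes, a pattern held by 18.5% of all tested genes. DNAJB1 and HSF1 were lower in both, as were 20.7% of all genes. HSPA8 and HSP90AA1 were called in opposite directions, as were 3.71% of all genes. HSPA1A and HSPA1B passed the threshold in p53+/+ cells and not in p53-/- cells, as did 17.9% of all genes, and HSPH1 the other way round, as did 16% of all genes. Library values of the depleted and control groups did not overlap for 10 members in p53-/- cells, against 63.1% of all genes, and for 8 members in p53+/+ cells, against 66.3% of all genes. In bulk RNA, fewer cells expressing a gene and less of its RNA per cell cannot be told apart.

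Between the scrambled controls the gap was wider than either depletion change for the HSP70 genes, HSPB1 and DNAJB1. For BAG3 the gap of 0.48 was close to its p53+/+ depletion change of 0.46 and wider than its p53-/- change of 0.32. The control gap was narrower than both depletion changes for HSPB8 (-0.98), HSF1 (0.21) and HSP90AA1 (-0.04). Between these controls 7 members were higher in KO-SCR than in SCR libraries, 1 was lower and 2 were not called. Over all genes 63.4% were called, 36.7% higher and 26.6% lower. Control libraries of the 2 genotypes did not overlap for 8 members, against 67.8% of all genes. The median member difference was 0.60 on the log2(FPKM + 1) scale, beside 0.06 over all genes. The 3 HSP70 genes, HSPB1 and DNAJB1 stood higher in p53-/- cells by 1.65 to 2.48 times, while HSPB8 stood at 0.348 times its p53+/+ level. Fold changes below are differences of log2(FPKM + 1) with their standard error, and this scale understates the change of low genes such as HSPB8.

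**Figure D1:**
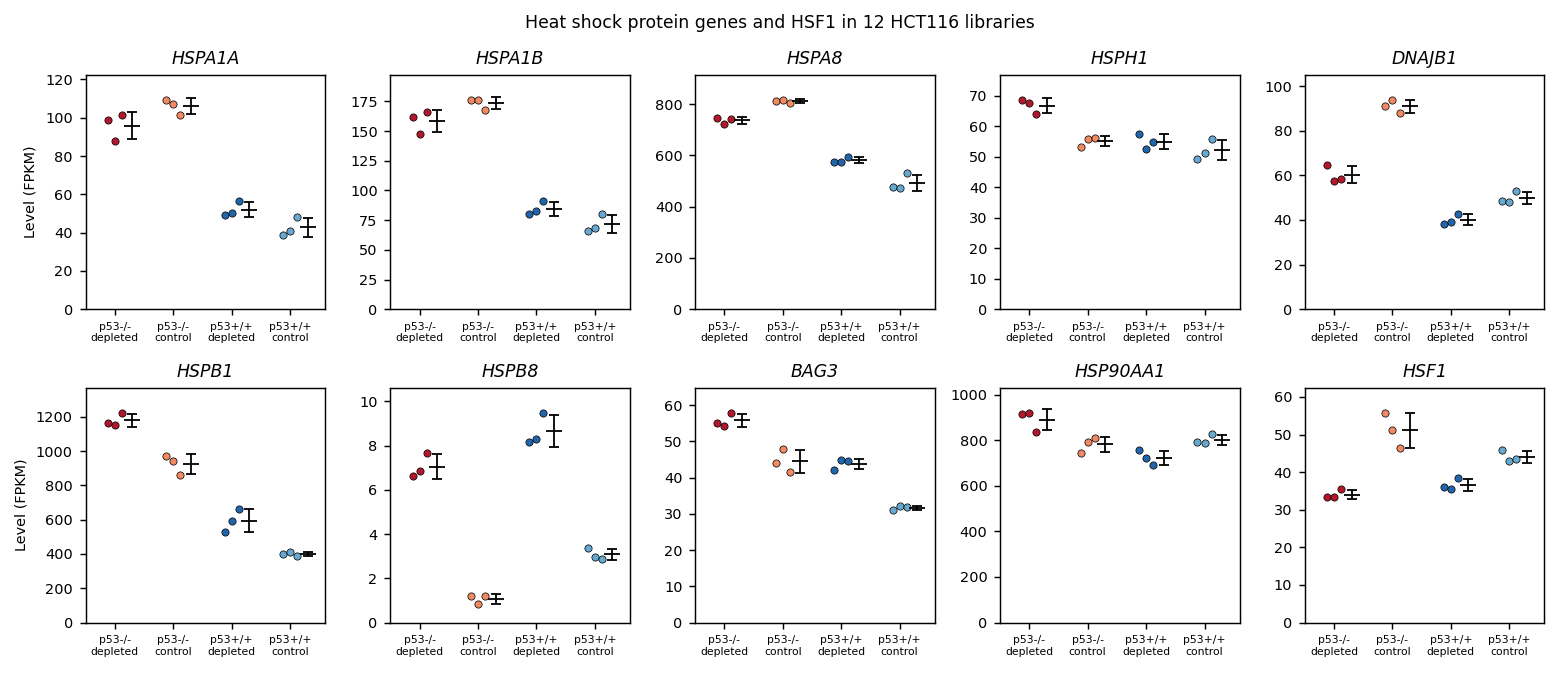
FPKM of each of the 10 members in every library, with the 4 groups along the horizontal axis, a point for each library and the group mean with its SD beside the points (n = 3). HSPA1A, HSPA1B, HSPA8, HSPB1 and DNAJB1 sit higher in both p53-/- groups than in both p53+/+ groups, while HSPB8 sits higher in both depleted groups than in both control groups.

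Sequence just upstream of the transcription start bears on how HSF1 meets these genes, so the windows of 9 members were read from RefSeq (GRCh38.p14, 250 bases before each listed start). Pairs of facing units were searched as GAANNTTC and TTCNNGAA, and runs of 3 units as GAA, NN, TTC, NN and GAA in a row or its reverse complement. Each pair motif reads alike on both strands, and every run contains both pairs. A pair lay in the windows of 7 members and a run of 3 in those of 2, HSPA8 and HSP90AA1. Over all 35116 RefSeq windows of the same length, 11.6% hold a pair and 0.441% hold a run of 3, counted by window. The 9 members have 12 windows and were counted by gene, so these shares are not like for like. No match lay in the windows of the other listed starts of DNAJB1, HSP90AA1 and HSP90AB1. The HSPH1 and BAG3 windows held neither, which says only that these letters are absent from those windows. The windows of 6 genes are printed, each 5′ to 3′ on the gene's strand with the matched letters in capitals, because they show the matches across chaperone classes, namely both kinds of HSP70, a J-domain protein, a small heat shock protein and both forms of HSP90. They are HSPA1A (chr6:31815293-31815542, plus strand), HSPA8 (chr11:123062137-123062386, minus strand), DNAJB1 at its second listed start (chr19:14518398-14518647, minus strand), HSPB8 (chr12:119178681-119178930, plus strand), HSP90AA1 at its second listed start (chr14:102087045-102087294, minus strand) and the related gene HSP90AB1 at the last of its listed starts (chr6:44247693-44247942, plus strand). No binding was measured in these libraries, and a match is a description of the sequence only.
HSPA1A: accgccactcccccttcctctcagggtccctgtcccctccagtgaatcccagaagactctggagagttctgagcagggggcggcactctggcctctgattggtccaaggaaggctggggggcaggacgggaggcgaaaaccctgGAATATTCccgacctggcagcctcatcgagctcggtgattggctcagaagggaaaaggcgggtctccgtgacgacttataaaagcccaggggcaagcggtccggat
HSPA8: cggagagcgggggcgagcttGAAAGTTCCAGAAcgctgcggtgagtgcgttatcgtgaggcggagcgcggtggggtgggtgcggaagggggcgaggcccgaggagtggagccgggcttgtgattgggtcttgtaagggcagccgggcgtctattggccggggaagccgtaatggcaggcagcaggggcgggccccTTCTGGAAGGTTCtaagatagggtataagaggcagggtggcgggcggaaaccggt
DNAJB1: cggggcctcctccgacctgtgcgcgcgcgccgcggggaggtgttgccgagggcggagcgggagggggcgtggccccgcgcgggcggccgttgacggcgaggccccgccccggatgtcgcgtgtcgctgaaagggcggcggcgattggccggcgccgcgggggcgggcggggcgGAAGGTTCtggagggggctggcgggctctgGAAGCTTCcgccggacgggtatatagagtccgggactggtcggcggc
HSPB8: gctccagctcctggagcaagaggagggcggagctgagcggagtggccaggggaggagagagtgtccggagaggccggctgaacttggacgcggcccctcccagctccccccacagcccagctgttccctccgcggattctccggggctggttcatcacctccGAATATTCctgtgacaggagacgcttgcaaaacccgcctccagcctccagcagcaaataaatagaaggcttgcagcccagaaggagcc
HSP90AA1: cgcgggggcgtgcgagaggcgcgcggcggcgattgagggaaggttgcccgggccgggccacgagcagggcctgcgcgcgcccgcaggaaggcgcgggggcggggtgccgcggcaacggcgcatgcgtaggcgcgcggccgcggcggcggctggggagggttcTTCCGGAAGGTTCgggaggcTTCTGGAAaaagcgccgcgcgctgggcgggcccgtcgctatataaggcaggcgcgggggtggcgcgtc
HSP90AB1: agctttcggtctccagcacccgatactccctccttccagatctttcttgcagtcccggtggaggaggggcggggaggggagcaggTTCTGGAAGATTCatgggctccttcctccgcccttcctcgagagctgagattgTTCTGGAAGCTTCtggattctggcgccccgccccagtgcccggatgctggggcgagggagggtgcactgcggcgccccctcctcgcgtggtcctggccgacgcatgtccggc

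HSPA8 carried 2 runs of 3, at 230 to 218 and 55 to 43 bases before the start. HSP90AB1 carried 2, at 165 to 153 and 112 to 100 bases before the last of its listed starts. That window lies downstream of the gene's other listed starts, whose own windows held no match. HSP90AA1 carried 1 run at 88 to 76 bases and a pair at 68 to 61 bases before its second listed start. The HSPB8 match, 88 to 81 bases before the start, has the same 8 letters as the one in HSPA1A at 106 to 99 bases and in its neighbour HSPA1B at 105 to 98 bases. With depletion in p53-/- cells, HSPB8 changed by 1.96 and HSPA1A by -0.14 on the log2(FPKM + 1) scale, and the HSPA1A change was not called. In p53+/+ cells both were called higher, HSPB8 by 1.24 and HSPA1A by 0.28. The part of the matched letters in these changes was not tested.

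HSF1, the factor itself, was lower in depleted cells of both genotypes. Its level was 33.4, 33.3 and 35.5 FPKM in KO-KD libraries, against 55.7, 51.3 and 46.4 FPKM in KO-SCR libraries. The p53+/+ level was 35.9, 35.4 and 38.5 FPKM in KD libraries, against 45.8, 42.8 and 43.4 FPKM in SCR libraries. All depleted libraries lay below all control libraries, and the KO-KD and KD ranges overlapped each other. HSF1 fell by 0.57 (SE 0.0601, adjusted p = 6.15e-06) in p53-/- cells and by 0.26 (adjusted p = 0.00252) in p53+/+ cells. With the mitochondrial genes left out, the p53+/+ value was -0.16 (adjusted p = 0.0215). Control cells differed by 0.21 (KO-SCR minus SCR, adjusted p = 0.00924), and this call was lost when libraries were rescaled by a trimmed mean (0.14, adjusted p = 0.0865). HSF1 overlaps DGAT1 in the RefSeq annotation, strand use in the authors' counting is not given, and DGAT1 changed by -0.30 in p53-/- cells and 0.27 in p53+/+ cells.

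Of 6 tested heat shock factors and HSF1 regulators, 3 were higher and 1 lower with depletion in p53-/- cells, and 1 was higher and 2 lower in p53+/+ cells. HSF2, which forms mixed trimers with HSF1, averaged 10.4 ± 1.06 FPKM in KO-KD and 7.43 ± 0.394 in KO-SCR libraries, a change of 0.43 (adjusted p = 0.000424). In p53+/+ cells HSF2 averaged 9.02 ± 0.118 FPKM in KD and 7.54 ± 0.801 in SCR libraries, a change of 0.23 (adjusted p = 0.0179). HSF2 was thus higher with depletion where HSF1 was lower. HSBP1, a small protein that binds the HSF1 trimer, was higher in KO-KD than in KO-SCR libraries by 0.19 (adjusted p = 0.00212), and its change of 0.07 in p53+/+ cells did not pass (adjusted p = 0.1999). IER5, which promotes HSF1 dephosphorylation and activity, was lower with depletion, at -0.15 in p53-/- cells (adjusted p = 0.0312) and -0.23 in p53+/+ cells (adjusted p = 0.00290). IER5 was also lower in KO-SCR than in SCR libraries, at -0.59 (adjusted p = 1.62e-06).

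The HSP70 genes were highest in p53-/- cells, whether depleted or not. HSPA1A and HSPA1B encode the stress-inducible HSP70 and are near-identical neighbours, so reads may be split between them and the summed value is given too. HSPA1A was at 98.6, 88.0 and 101.2 FPKM in KO-KD libraries, against 109, 107 and 101.5 FPKM in KO-SCR libraries. Its level in p53+/+ cells was 49.4, 50.03 and 56.4 FPKM in KD libraries, against 38.9, 40.9 and 48.3 FPKM in SCR libraries. Every p53-/- library lay above every p53+/+ library, and within each genotype the depleted and control ranges did not overlap. HSPA1B ran in parallel, with an HSPA1B to HSPA1A ratio of 1.61 to 1.70 over the 12 libraries. It averaged 158 ± 9.48 FPKM in KO-KD, 173 ± 4.99 in KO-SCR, 84.5 ± 5.76 in KD and 71.7 ± 7.63 in SCR libraries, and here the KD and SCR ranges overlapped.

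Summed, the pair averaged 254 ± 16.5 FPKM in KO-KD, 279 ± 9.01 in KO-SCR, 136 ± 9.56 in KD and 114 ± 12.6 in SCR libraries. The sum was 2.44 times as high in KO-SCR as in SCR libraries (log2 difference 1.28, adjusted p = 2.79e-08). With depletion it was 1.19 times as high in p53+/+ cells (log2 change 0.25, adjusted p = 0.0103). The change of -0.14 in p53-/- cells did not pass (adjusted p = 0.135). The 2 effects differed by -0.39 (SE 0.105, adjusted p = 0.0138), and the adjusted p was 0.0608 when no filter on low genes was used. For HSPA1A alone the p53+/+ change was 0.28 (SE 0.0792, adjusted p = 0.00875), and in p53-/- cells the 95% interval of its change ran from -0.32 to 0.03. For HSPA1B the p53+/+ change was 0.24 (adjusted p = 0.0124), and it no longer passed without KD replicate 3 (0.18, adjusted p = 0.0559) or without SCR replicate 1 (0.18, adjusted p = 0.0577).

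HSPA8, the constitutive cognate HSP70 that folds nascent chains and uncoats clathrin vesicles, followed the same order of groups at a higher level. It was at 744, 722 and 743 FPKM in KO-KD libraries, against 813, 817 and 805 FPKM in KO-SCR libraries. In p53+/+ cells it was at 575, 574 and 594 FPKM in KD libraries, against 476, 472 and 529 FPKM in SCR libraries. No 2 groups overlapped. HSPA8 thus fell by 0.14 with depletion in p53-/- cells (SE 0.0398, adjusted p = 0.00954) and rose by 0.24 in p53+/+ cells (adjusted p = 0.000219), and the effects differed by -0.38 (SE 0.0564, adjusted p = 0.000381). The p53-/- call was lost with the mitochondrial genes left out (-0.09, adjusted p = 0.0607). Per length, HSPA8 stood above HSPA1A and HSPA1B together by 2.90 times in KO-KD, 2.91 in KO-SCR, 4.27 in KD and 4.32 in SCR libraries. The table lists 14 HSPA8 pseudogenes, of which 1 passed the filter, and reads shared with such copies may be split. HSPA6, a strictly inducible HSP70 that is near silent without stress, stayed at a mean of at most 0.0362 FPKM in every group and was not tested.

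DNAJB1 and HSPH1, partners of HSP70, were called in opposite directions in p53-/- cells, and DNAJB1 alone of them was called in p53+/+ cells. DNAJB1, the J-domain protein that delivers substrates to HSP70 and helps return HSF1 to its inactive state, was lower with depletion in both genotypes. It was at 64.6, 57.6 and 58.5 FPKM in KO-KD libraries, against 91.0, 93.9 and 87.7 FPKM in KO-SCR libraries. The p53+/+ level was 38.3, 39.1 and 42.9 FPKM in KD libraries, against 48.4, 48.2 and 53.1 FPKM in SCR libraries. The 4 groups did not overlap. DNAJB1 fell to 0.663 of the control mean in p53-/- cells (log2 change -0.59, SE 0.0569, adjusted p = 2.94e-06) and to 0.803 in p53+/+ cells (-0.31, adjusted p = 0.000496). The difference of -0.28 between the effects (SE 0.0805, adjusted p = 0.0200) was lost without KO-KD replicate 2 (adjusted p = 0.0512) or SCR replicate 2 (adjusted p = 0.05005), and with no filter (adjusted p = 0.0673). DNAJB1 averaged 0.0817 of the HSPA8 level in KO-KD and 0.112 in KO-SCR libraries, and 0.0690 in KD and 0.101 in SCR libraries, both per length. DNAJB1 overlaps MIR639 and TECR in the RefSeq annotation. TECR averaged 70.4 ± 3.80 FPKM in KO-KD and 74.3 ± 3.04 in KO-SCR libraries, a change of -0.08 (adjusted p = 0.262), and 57.1 ± 4.62 in KD and 67.1 ± 1.07 in SCR libraries, a change of -0.23 (adjusted p = 0.00331). The part of shared reads in the DNAJB1 values was not tested.

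HSPH1, the HSP110 exchange factor that releases ADP from HSP70, was at 68.7, 67.6 and 64.0 FPKM in KO-KD libraries, against 53.1, 56.0 and 56.1 FPKM in KO-SCR libraries. Its level in p53+/+ cells was 57.3, 52.6 and 54.9 FPKM in KD libraries, against 49.3, 51.3 and 55.9 FPKM in SCR libraries. The KO-KD libraries stood above all others, and the remaining groups overlapped. HSPH1 rose by 0.27 in p53-/- cells (SE 0.0499, adjusted p = 0.000505). Its p53+/+ change was 0.07 (adjusted p = 0.219, 95% interval -0.03 to 0.18), which passed with the mitochondrial genes left out (0.17, adjusted p = 0.0160) or without SCR replicate 3 (0.12, adjusted p = 0.0435). The difference of the effects, 0.20 (adjusted p = 0.0475), was lost in 9 of 12 fits that left out 1 library, with adjusted p up to 0.110. It was also lost in 5 other settings, with the largest adjusted p when the mitochondrial genes were left out (0.15, adjusted p = 0.147). Without SCR replicate 3 the control difference of 0.08 (adjusted p = 0.193) became 0.13 (adjusted p = 0.0366).

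**Figure D2:**
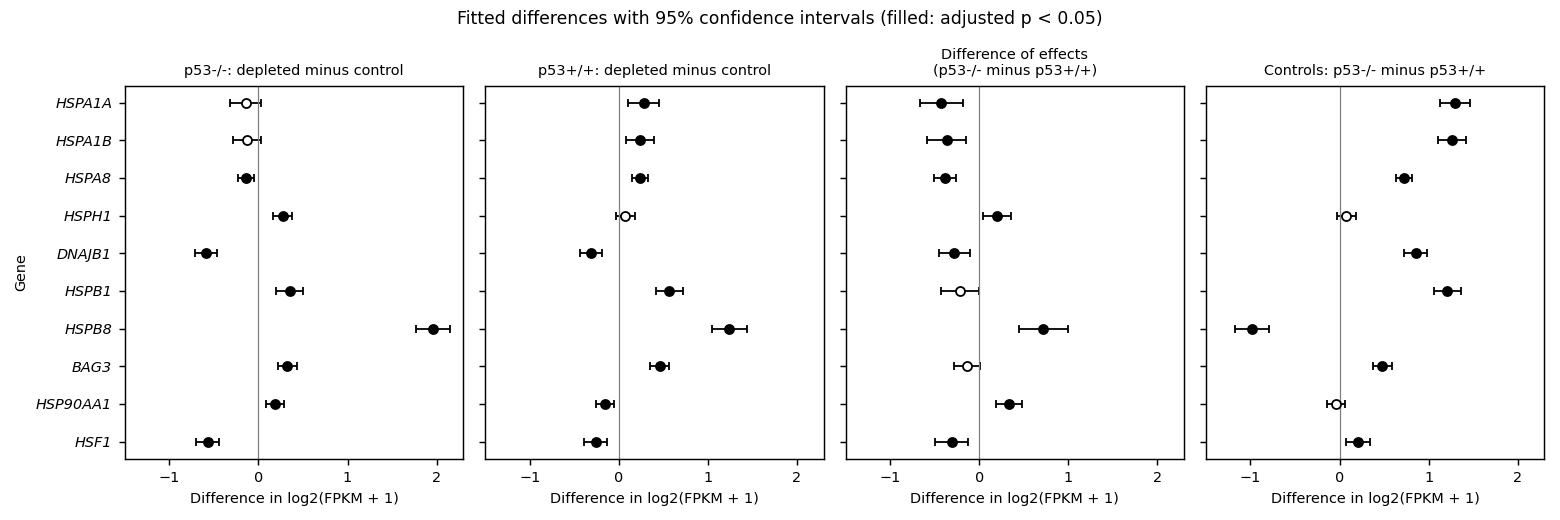
Differences of log2(FPKM + 1) for the 10 members in the 4 comparisons, with points at the estimate, filled where the adjusted p is under 0.05, and bars spanning the 95% interval from limma (3 libraries per group). HSPB8 has the widest depletion effects, 1.96 in p53-/- and 1.24 in p53+/+ cells, while HSPA8 and HSP90AA1 lie on opposite sides of 0 in the 2 genotypes.

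The small heat shock proteins among the members, HSPB8 and HSPB1, and the co-chaperone BAG3 were higher with depletion in both genotypes. HSPB8 holds misfolded clients and works in a complex with BAG3 and HSP70 that feeds aggregates into autophagy. It was at 6.63, 6.83 and 7.69 FPKM in KO-KD libraries, against 1.21, 0.818 and 1.18 FPKM in KO-SCR libraries. In p53+/+ cells it was at 8.19, 8.29 and 9.48 FPKM in KD libraries, against 3.39, 2.97 and 2.89 FPKM in SCR libraries. No groups overlapped, and every depleted library lay above every control library. The ratio of means was 6.58 in p53-/- cells (log2 change 1.96, SE 0.0889, adjusted p = 4.95e-09) and 2.81 in p53+/+ cells (1.24, adjusted p = 1.80e-07). Among 13728 genes the HSPB8 change ranked 6 from the top in p53-/- cells and 100 in p53+/+ cells.

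The HSPB8 effects differed by 0.72 between the genotypes (SE 0.126, adjusted p = 0.00113), or by 1.16 with a pseudocount of 0.1. Its controls differed the other way, by -0.98 (KO-SCR minus SCR, adjusted p = 1.28e-06), so that the lower starting level in p53-/- cells went with the larger change. Depleted cells of the 2 genotypes were closer, at 7.05 ± 0.561 FPKM in KO-KD and 8.65 ± 0.717 in KD libraries. An antisense gene, HSPB8-AS1, overlaps HSPB8 in RefSeq, and reads from the strands may not be told apart.

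HSPB1 (HSP27), an abundant small heat shock protein that forms large oligomers and binds actin, was at 1165, 1152 and 1222 FPKM in KO-KD libraries, against 972, 944 and 859 FPKM in KO-SCR libraries. The p53+/+ level was 528, 594 and 662 FPKM in KD libraries, against 400.1, 409.5 and 389 FPKM in SCR libraries. All 4 groups were separate, and both p53-/- groups lay above both p53+/+ groups. HSPB1 rose by 0.35 in p53-/- cells (SE 0.0694, adjusted p = 0.000882) and by 0.57 in p53+/+ cells (adjusted p = 1.82e-05), and KO-SCR exceeded SCR libraries by 1.21 (adjusted p = 2.68e-08). The 2 effects differed by -0.21, which did not pass (adjusted p = 0.114), but did without KD replicate 1 (-0.30, adjusted p = 0.0143) and with the mitochondrial genes left out (-0.26, adjusted p = 0.0409). CRYAB, another small heat shock protein, was listed at no more than 0.101 FPKM in any library.

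BAG3, the co-chaperone that ties HSP70 to HSPB8 and to selective autophagy, was at 55.2, 54.3 and 57.9 FPKM in KO-KD libraries, against 44.1, 47.8 and 41.5 FPKM in KO-SCR libraries. Its level in p53+/+ cells was 42.1, 44.8 and 44.5 FPKM in KD libraries, against 30.9, 32.1 and 31.8 FPKM in SCR libraries. KO-KD libraries were highest and SCR libraries lowest, with KO-SCR and KD libraries overlapping between them. BAG3 rose by 0.32 in p53-/- cells (SE 0.0485, adjusted p = 0.000113) and by 0.46 in p53+/+ cells (adjusted p = 5.22e-06). The effects differed by -0.14 (adjusted p = 0.1501), which passed without KO-SCR replicate 3 (-0.18, adjusted p = 0.0436) and with the mitochondrial genes left out (-0.18, adjusted p = 0.0462). The HSPB8 to BAG3 ratio averaged 0.126 in KO-KD and 0.0244 in KO-SCR libraries, and 0.198 in KD and 0.0976 in SCR libraries. SQSTM1 (p62), the autophagy receptor that acts with BAG3, also rose, by 0.66 in p53-/- cells (adjusted p = 4.88e-09) and 1.04 in p53+/+ cells (adjusted p = 1.46e-10). STUB1 (CHIP), the ubiquitin ligase of HSP70 clients, fell by 0.36 in p53-/- cells (adjusted p = 0.000399), while its p53+/+ change of 0.12 did not pass (adjusted p = 0.138).

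Cytosolic HSP90 comes as an inducible form, HSP90AA1, and a constitutive form, HSP90AB1, which mature kinases and steroid receptors. HSP90AA1 was at 913, 919.7 and 838 FPKM in KO-KD libraries, against 746, 791 and 810.0 FPKM in KO-SCR libraries. In p53+/+ cells it was at 755, 721 and 692 FPKM in KD libraries, against 792, 786 and 828 FPKM in SCR libraries. KO-KD libraries were above every other library, while KO-SCR libraries overlapped both p53+/+ groups. HSP90AA1 rose by 0.19 in p53-/- cells (SE 0.0462, adjusted p = 0.00424) and fell by 0.15 in p53+/+ cells (adjusted p = 0.0138), a difference of 0.34 (SE 0.0653, adjusted p = 0.00217). The p53+/+ call was lost with the mitochondrial genes left out (-0.05, adjusted p = 0.382), with no filter (adjusted p = 0.0572), and without KD replicate 3 (-0.12, adjusted p = 0.0577) or SCR replicate 3 (-0.13, adjusted p = 0.0559). Between controls the difference of -0.04 did not pass (adjusted p = 0.510), and under trimmed-mean scaling it was -0.11 (adjusted p = 0.0368).

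HSP90AB1 changed far more and the same way in both genotypes. It was at 532, 533 and 519 FPKM in KO-KD libraries, against 1166, 1200 and 1211 FPKM in KO-SCR libraries. The p53+/+ level was 453, 445 and 436 FPKM in KD libraries, against 1052, 1033 and 1081 FPKM in SCR libraries. HSP90AB1 fell to 0.443 of the control mean in p53-/- cells (-1.17, adjusted p = 4.15e-11) and to 0.421 in p53+/+ cells (-1.25, adjusted p = 3.34e-11). The HSP90AA1 to HSP90AB1 ratio averaged 1.69 ± 0.0625 in KO-KD and 0.656 ± 0.0148 in KO-SCR libraries, and 1.63 ± 0.0395 in KD and 0.760 ± 0.00617 in SCR libraries (SD, n = 3 each). The inducible form was therefore the more abundant of the pair, per length, in every depleted library and the less abundant in every control library. Pseudogene copies are listed for both genes, 5 for HSP90AA1 and 3 for HSP90AB1, and HSP90AA1 overlaps WDR20 in the RefSeq annotation. WDR20, at means of 6.49 to 10.7 FPKM, changed by 0.40 in p53-/- and 0.32 in p53+/+ cells.

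**Figure D3:**
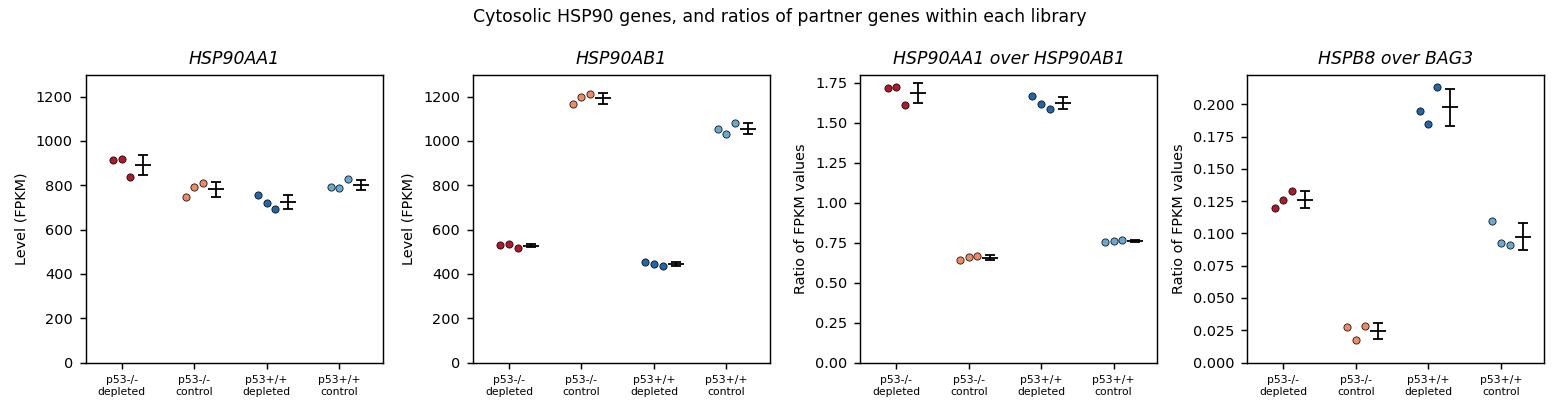
FPKM of HSP90AA1 and HSP90AB1, their ratio, and the ratio of HSPB8 to BAG3 in the 4 groups, with a point for each library and the group mean with its SD beside the points (n = 3). The HSP90AA1 to HSP90AB1 ratio averages 1.69 in depleted p53-/- and 1.63 in depleted p53+/+ cells, while the scrambled controls average 0.656 and 0.760 in the same order of genotypes.

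Set side by side, the depletion effects of the 2 genotypes were unequal for 8 members. The difference, p53-/- minus p53+/+, was higher for HSPB8, HSP90AA1 and HSPH1 and lower for HSPA1A, HSPA1B, HSPA8, DNAJB1 and HSF1, against 32.9% of all genes called, 16.7% higher and 16.2% lower. It was -0.42 for HSPA1A (SE 0.112, adjusted p = 0.0127), -0.37 for HSPA1B (SE 0.101, adjusted p = 0.0156) and -0.31 for HSF1 (SE 0.0850, adjusted p = 0.0154). The median over the 10 members was -0.25, beside 0.00 over all genes. Without the filter on low genes only 3 of these calls stood, those of HSPA8, HSPB8 and HSP90AA1, at the same estimates and larger adjusted p. With the mitochondrial genes left out, the calls over all genes split into 1830 higher and 2769 lower, in place of 2286 and 2225. In p53+/+ depletion the split became 4944 higher and 3419 lower, in place of 3916 and 4418.

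A wider set of 81 heat shock genes in 8 lists was not uniform either. Of its 69 tested genes, 31 were higher and 23 lower with depletion in p53-/- cells, and 23 were higher and 22 lower in p53+/+ cells. Over all genes the shares were 28.9% higher and 29.9% lower in p53-/- cells, and 28.5% higher and 32.2% lower in p53+/+ cells. The median log2 change of the 69 was 0.07 in p53-/- and 0.04 in p53+/+ cells, beside -0.00 and -0.02 over all genes in that order. Among 10 J-domain co-chaperones, 6 were higher and 2 lower in each genotype, while DNAJB1, which is outside that list, was lower in both. DNAJB5 was higher by 0.90 in p53-/- and 0.82 in p53+/+ cells, and DNAJB6, a suppressor of polyglutamine aggregation, by 0.58 and 0.53 in the same order. DNAJA1, a farnesylated partner of HSPA8, averaged 125.5 ± 5.22 FPKM in KO-KD and 112 ± 1.73 in KO-SCR libraries, and 98.9 ± 0.598 in KD and 76.8 ± 4.76 in SCR libraries.

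Among 14 HSP90 list genes, 7 were higher and 3 lower with depletion in p53-/- cells, and 2 were higher and 5 lower in p53+/+ cells. CHORDC1, an HSP90 co-chaperone, was higher by 0.44 in p53-/- cells, and its p53+/+ change of 0.08 did not pass. PTGES3 (p23), which stabilises closed HSP90, was lower in both genotypes, at -0.12 in p53-/- and -0.46 in p53+/+ cells. Of 12 BAG family and quality control genes, 5 were higher and 5 lower in p53-/- cells, and 4 were higher and 2 lower in p53+/+ cells. BAG1 was lower, at -0.33 in p53-/- and -0.35 in p53+/+ cells, opposite to BAG3. In the HSP70 list, 3 of 7 tested genes were higher and 2 lower in p53-/- cells, and 4 were higher and 1 lower in p53+/+ cells. HSPBP1, an exchange factor of HSP70, was lower at -0.55 and -0.38 in the same order of genotypes. Of 8 further genes listed as small heat shock proteins only HSPB11 was tested. It was higher with depletion in p53-/- cells (0.45), and its p53+/+ change of 0.11 did not pass (adjusted p = 0.236).

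Of 9 other HSF1 targets, 3 were higher and 4 lower in p53-/- cells, and 2 were higher and 5 lower in p53+/+ cells. HSPD1, the mitochondrial HSP60, averaged 117.5 ± 4.30 FPKM in KO-KD and 362 ± 9.23 in KO-SCR libraries, and 183 ± 7.42 in KD and 411 ± 7.95 in SCR libraries. Organelle chaperones moved in both directions, with 3 higher and 6 lower of 10 in p53-/- cells and 4 higher and 5 lower in p53+/+ cells. HSPA5 (BiP), the HSP70 of the endoplasmic reticulum, averaged 230.1 ± 2.23 FPKM in KO-KD and 167 ± 1.47 in KO-SCR libraries, and 154 ± 3.67 in KD and 115 ± 3.49 in SCR libraries. HSPD1 was thus lower and HSPA5 higher with depletion in both genotypes, past the threshold in each. Other genes of the same lists were called the other way. CLU, of the HSF1 targets, was higher, at 0.68 in p53-/- and 0.92 in p53+/+ cells. HYOU1, of the organelle chaperones, was lower, at -1.43 and -1.03 in the same order of genotypes. Between controls, 37 of the 69 tested genes were higher and 15 lower in KO-SCR than in SCR libraries, with a median of 0.17, beside 36.7% higher, 26.6% lower and a median of 0.06 over all genes.

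**Figure D4:**
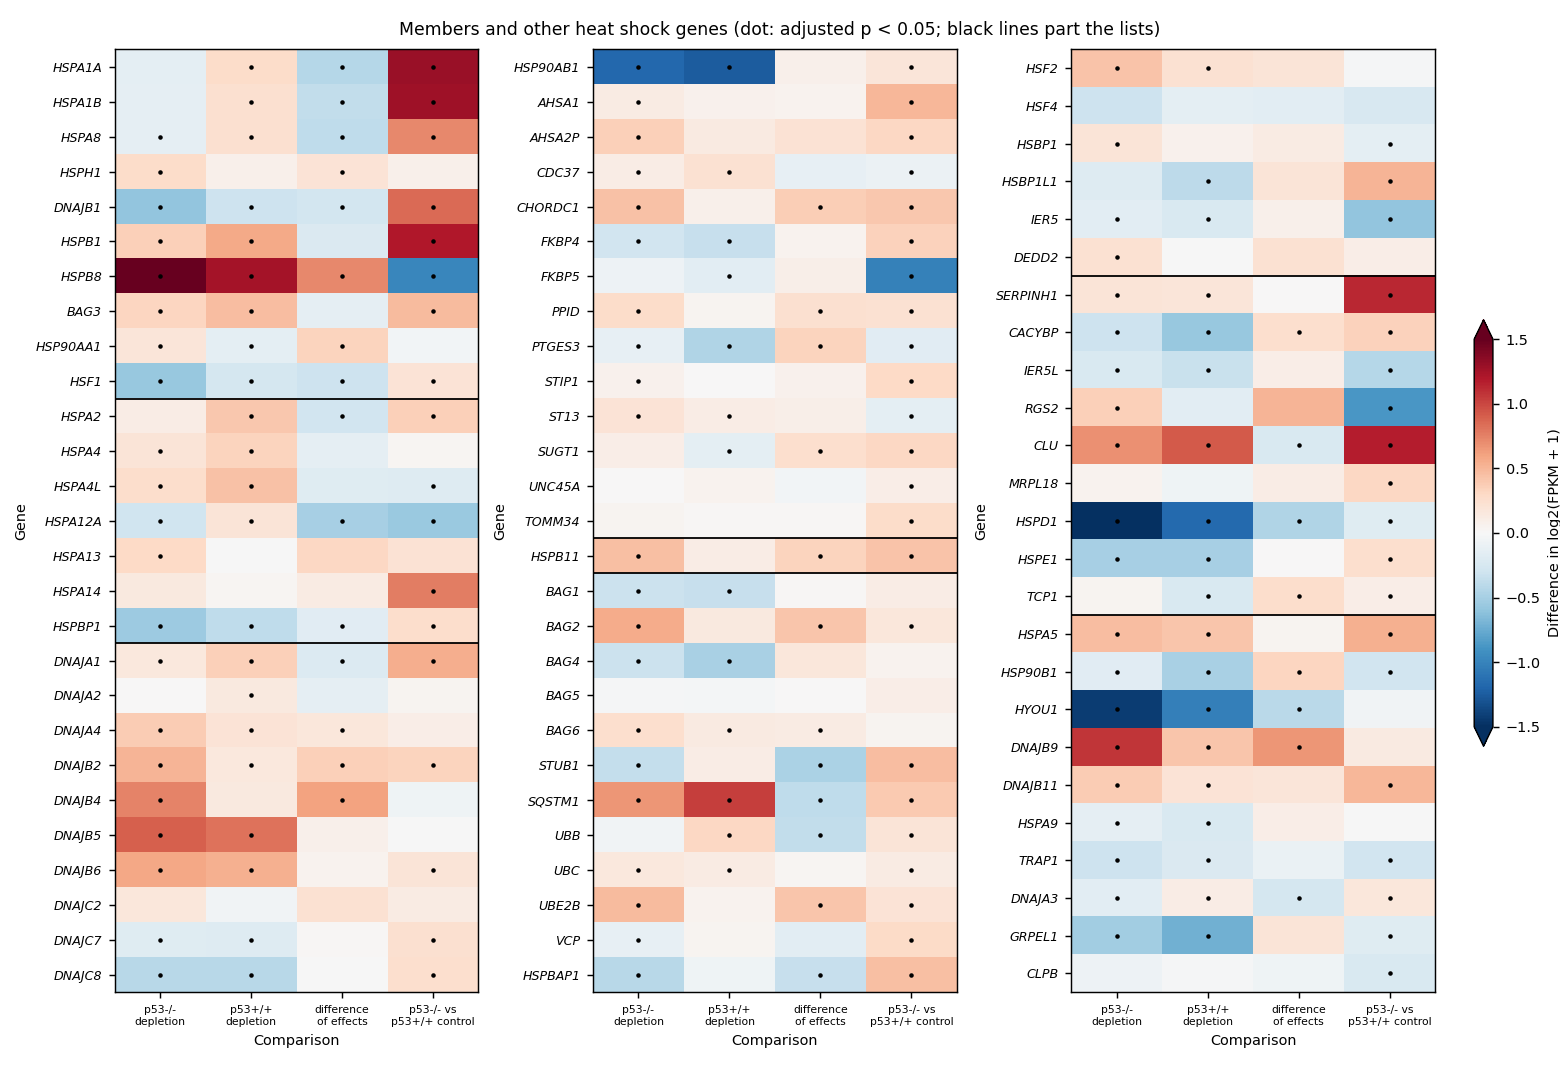
Differences of log2(FPKM + 1) for the 10 members and the 69 tested genes of the wider heat shock lists (rows) in the 4 comparisons (columns), with a dot where the adjusted p is under 0.05 and black lines between lists, coloured on a scale that ends at 1.5 in both directions. Values beyond the scale ends, such as 1.96 for HSPB8 and -1.61 for HSPD1 in p53-/- cells, take the end colour.

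Of the members, 5 had group means spanning at least 1 on the log2(FPKM + 1) scale, and genes of like pattern were sought for them by the root mean square difference of centred values over the 12 libraries. NLRP2 was nearest to both HSPA1A (0.0909) and HSPA1B (0.0769), followed by MEPCE (0.105 and 0.0915 in the same order). DNAJB1 was matched most closely by MID1IP1 (0.0630) and ZMYND19 (0.0653). HSPB1 was nearest to HECTD3 (0.0923), PPP1R18 (0.0930) and MYD88 (0.0934). HSPB8 had no neighbour as close, with CRABP2 at 0.157 and DUSP5 at 0.169. These distances describe 12 libraries of 4 groups and carry no test.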

How the data were processed

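Poly(A) RNA from 12 HCT116 libraries was sequenced on the Illumina HiSeq platform, per the labels' protocols and design text. The authors deposited 1 table of 36615 gene symbols by 12 libraries without a stated unit. The deposited values were read as FPKM, since they are not whole numbers, total 348822 to 372821 in a library and show a length correction (ND4L to ND4 ratio 0.970 to 1.06). The build was hg19 per the submitters' processing notes, with aligner, quantifier, annotation and strand use not given in the sources used here. Low values showed no whole-read steps, so depth is unknown and no counting interval is given. Column names beginning with KO were read as p53-/- cells.

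Values were tested as log2(FPKM + 1) in limma 3.58.1 (R 4.3.3), with a variance trend and 1 mean per group over all 12 libraries (8 residual degrees of freedom). Genes with at least 1 FPKM in at least 3 libraries were kept, and Benjamini-Hochberg adjustment ran over these 13728 genes, with calls made at an adjusted p under 0.05. For the HSPA1A and HSPA1B sum, the sum replaced both genes. The code was checked on simulated data. Alternatives were a pseudocount of 0.1, no filter, trimmed-mean scaling, leaving out 15 mitochondrial genes, no variance trend, only the groups compared, a replicate block and leaving out each library. Heat shock genes outside the 10 members were drawn from the picks of a rule. The rule took 9 fixed genes plus, per list and comparison, the 3 largest called changes each way. A group mean of at least 5 FPKM was needed for the latter. Only some of the genes picked are described, so the named genes are a further selection from them. The members, lists and rule were chosen with earlier results of these data known. Promoter sequences are RefSeq's on GRCh38.p14, another build than the table's, and no table coordinate was used.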

Additional observations from a re-analysis of the deposited data

Results flagged for a closer look

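The depletion effects differed between p53-/- and p53+/+ cells for 8 of the 10 members, by limma's test of the difference itself with Benjamini-Hochberg adjustment, against 32.9% of all genes tested. The difference of log2 changes, p53-/- minus p53+/+, was 0.72 for HSPB8, 0.34 for HSP90AA1 and 0.20 for HSPH1. It was -0.42 for HSPA1A, -0.37 for HSPA1B, -0.38 for HSPA8, -0.28 for DNAJB1 and -0.31 for HSF1. Without the filter on low genes, only the calls for HSPB8, HSP90AA1 and HSPA8 stood. The HSPH1 call was also lost in 9 of 12 fits that left out 1 library, and the DNAJB1 call in 2 of 12. For HSPA8 and HSP90AA1 the changes had opposite signs in the 2 genotypes and each passed the threshold, although HSPA8 in p53-/- cells and HSP90AA1 in p53+/+ cells did not pass with the mitochondrial genes left out. For HSPB8, DNAJB1 and HSF1 the direction was shared and the change was larger in p53-/- cells. Each genotype is 1 line, so the difference cannot be assigned to p53.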

How the results depend on the processing

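Over the 10 members and the HSPA1A and HSPA1B sum in 4 comparisons, no setting reversed a direction that had been called. Of 297 values under other settings, 279 kept their direction and side of the threshold and 18 crossed it, and of 528 values with 1 library left out, 509 kept both and 19 crossed. With no filter on low genes the members called in the difference of the effects numbered 3 in place of 8, and the HSPA1A and HSPA1B sum, at -0.39, had an adjusted p of 0.0608. The unfiltered fit tests all 36615 genes. Over all tested genes no pairing by replicate number was seen, and same-numbered libraries had correlations of deviations between -0.102 and 0.156 over 12 pairs. That check takes all genes together, so it cannot exclude a shared replicate effect on particular members. A fit with the replicate number as a block changed 1 of 44 calls, the HSPH1 difference at 0.20 (adjusted p = 0.0760). Depth is unknown, so the counting error of low genes such as HSPB8 in KO-SCR libraries cannot be given.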
